A study of Mus musculus with 81 samples.

Results

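The hearts of 37 BXD strains were split by their level of Mndal, an interferon-inducible gene of the Ifi200 family on distal chromosome 1. The groups were chosen by measured values: for each strain the mean of its chow and its high fat array was taken, strains under 6.8 units formed the low group and strains at 6.8 units or more the high group. This gave 19 low Mndal strains (38 arrays) and 18 high Mndal strains (36 arrays), out of 42 strains and 81 arrays in the series. BXD strains are recombinant inbred lines from C57BL/6J and DBA/2J, so each carries, at any position, the segment of 1 parent. All animals were males of 29 weeks, fasted overnight, on chow or on a high fat diet, and each array held RNA pooled evenly from about 5 hearts of 1 strain and diet, so variation between single animals is averaged out. The protocol shared by all samples describes chow alone, and diet was taken from the treatment label. Both parents, DBA/2J and C57BL/6J, had an array on each diet, and 3 more BXD strains were measured on chow only. They took no part in the split.

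The Ifi200 family, also called PYHIN, encodes proteins with a HIN domain that binds DNA and, in most members, a pyrin domain that binds other proteins. Interferons and other immune signals induce many of its members, and the family is best known from macrophages and other leukocytes. Aim2 binds DNA in the cytosol and assembles an inflammasome. Ifi202b lacks the pyrin domain, binds DNA and restrains Aim2. The genes lie side by side on mouse chromosome 1, differ in number and sequence between inbred strains, and are close enough in sequence that a probe for one can bind RNA of another, so the levels of single members are uncertain to that extent.

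Promoters of the family are shown because Mndal and Ifi202b, which adjoin each other in gene order among the measured genes, had opposite patterns in these hearts. The sequences are from RefSeq (GRCm38.p6, the C57BL/6J reference), 250 bases before to 50 bases after the gene start, written 5′ to 3′ along the gene. Capitals mark matches to GAAA, any 2 bases and GAAA again, the core of the element that interferon-activated factors bind, searched on both strands. The windows of Mndal (chr1:173880138-173880437, minus strand) and Ifi202b (chr1:173982795-173983094, minus strand) read in full as follows.
Mndal: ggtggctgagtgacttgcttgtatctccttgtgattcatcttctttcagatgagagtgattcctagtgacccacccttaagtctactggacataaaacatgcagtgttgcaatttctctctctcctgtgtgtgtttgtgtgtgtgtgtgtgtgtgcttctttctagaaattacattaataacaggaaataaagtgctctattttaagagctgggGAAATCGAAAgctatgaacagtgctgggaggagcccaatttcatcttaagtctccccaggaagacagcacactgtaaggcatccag
Ifi202b: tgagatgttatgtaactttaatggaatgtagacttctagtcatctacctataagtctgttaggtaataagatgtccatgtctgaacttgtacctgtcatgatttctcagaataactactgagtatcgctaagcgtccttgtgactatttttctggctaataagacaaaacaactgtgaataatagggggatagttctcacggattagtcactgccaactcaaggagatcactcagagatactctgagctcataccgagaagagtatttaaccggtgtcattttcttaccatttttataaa

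For Mndal 2 windows were listed, of which only the first is shown and described. This Mndal window held 1 match, beginning 36 bases before the gene start, and the Ifi202b window held 0. Windows were found for 9 of the 11 family members measured. Those of Ifi213, Ifi207, Ifi208 and Ifi214 held 1 match each, that of Ifi205 held 2, and those of Ifi209 and Aim2 held 0. Of 32851 promoter windows of this length in the whole table, 1131 (3.44%) held the motif. To compare the letters around it, the first match is given with up to 15 bases on either side for Mndal (chr1:173880199-173880238), Ifi213 (chr1:173599321-173599360), Ifi207 (chr1:173741826-173741865) and Ifi205 (chr1:174031865-174031904), all on the minus strand. These are letters of the reference strain and not of the BXD strains, and a match is no measured binding site.
Mndal: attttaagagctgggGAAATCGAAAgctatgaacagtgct
Ifi213: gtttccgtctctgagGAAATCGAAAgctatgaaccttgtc
Ifi207: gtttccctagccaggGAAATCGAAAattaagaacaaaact
Ifi205: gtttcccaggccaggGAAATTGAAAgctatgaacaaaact

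Values are rescaled expression units. The authors set every array to the same mean (8) and the same SD (2). The scale is log-like with an unknown base, so differences are given in units and never as folds. Probe sets of different genes are not compared in level.

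Mndal, which defined the groups and is therefore only described, ranged over strain means of 5.44 to 6.16 units in low Mndal strains (median 5.75), and of 7.43 to 8.51 in high Mndal strains (median 7.97). The group means were 5.84 ± 0.215 units (SD, n = 19 strains) and 8.005 ± 0.363 units (SD, n = 18). Just inside the low group lay BXD95 at 6.16, and just outside it BXD66 at 7.43, which left a gap of 1.26 units around the threshold. The arrays of 36 of the 37 strains lay on 1 side of the threshold on both diets. The exception was BXD66, with 6.799 units on chow, just under the threshold, and 8.06 on high fat.

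Samples that the split did not use showed the same 2 levels. DBA/2J had 5.65 units on chow and 5.98 on high fat, against 8.76 on both diets in C57BL/6J. Of the strains with chow alone, BXD60 had 5.43 units, BXD79 7.37 and BXD92a 7.999.

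**Figure D1:**
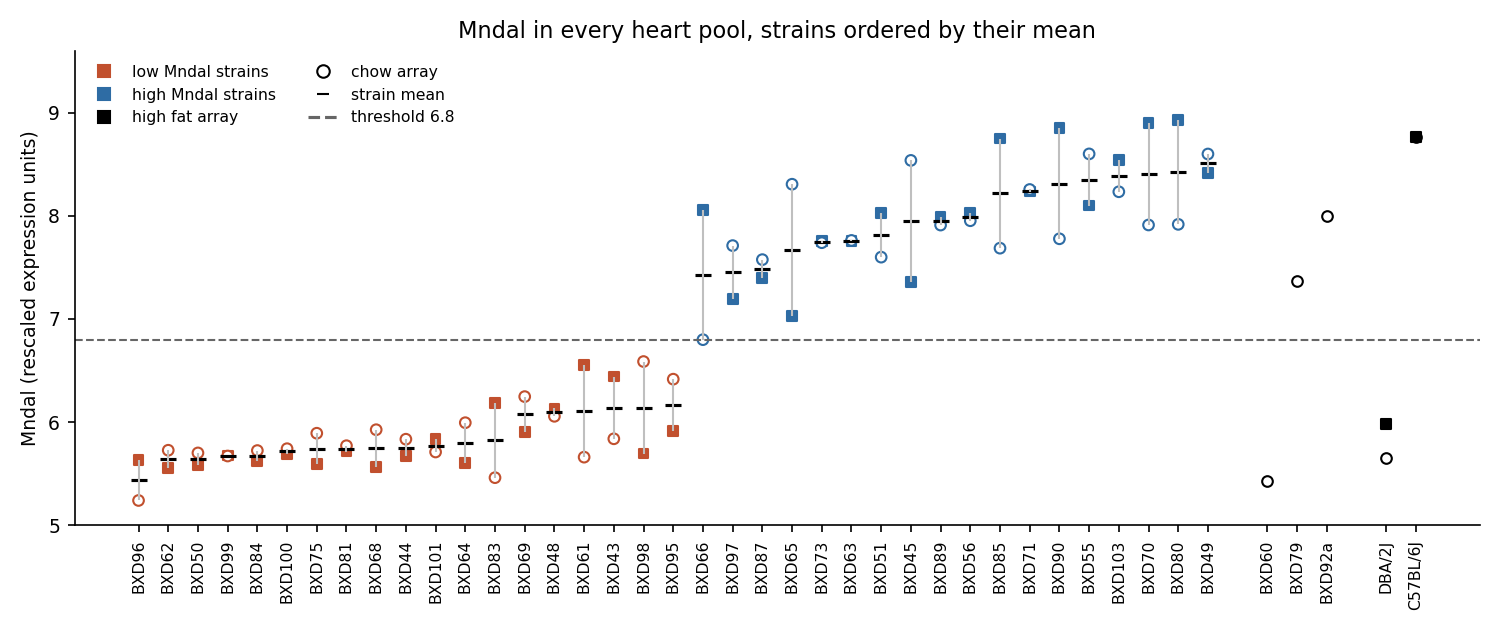
Mndal level in rescaled expression units (vertical axis) for each strain, ordered by strain mean, with filled squares for high fat arrays, open circles for chow arrays and black bars for strain means. The 19 low Mndal strains (left) and 18 high Mndal strains (right of them) leave a gap of 1.26 units. The 3 strains with chow alone and both parents stand at the right, and the C57BL/6J symbols of both diets coincide at 8.76.

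The difference of Mndal between the diets was on average small beside this gap and is described without a test, since the same arrays set the groups. High fat minus chow averaged -0.0341 ± 0.439 units in low Mndal strains (SD, n = 19) and was above 0 in 7 of them. In high Mndal strains it averaged 0.135 ± 0.745 units (SD, n = 18) and was above 0 in 10. Single strains differed by -0.892 to 0.892 units in the low group and by -1.277 to 1.256 in the high group. Among high strains this reached the size of the gap.

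The main comparison asked which other transcripts differ between low and high Mndal hearts, and whether they lie beside Mndal or elsewhere. Each strain entered once, as the mean of its 2 arrays, so diet is balanced in every value. A gene is called at an adjusted p under 0.05 (limma, Benjamini-Hochberg over 22179 genes). In all 27 genes were called (0.122%), of which 11 were higher (0.0496%) and 16 lower (0.0721%) in low Mndal strains. At an unadjusted p under 0.05 stood 1783 genes (8.04%). Of the 414 measured chromosome 1 genes within 250 places of Mndal in gene order, 20 were called, 5 higher and 15 lower. The other 814 genes of chromosome 1 had 0 calls, with 63 at an unadjusted p under 0.05. On the other chromosomes 7 of 20762 genes were called, 6 higher and 1 lower.

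Calls were densest beside Mndal. Of the 10 measured genes just before it 5 were called, and of the 10 just after it 2. Cadm3 was the only one of these calls outside the Ifi200 family, whose probes can bind RNA of one another. The density beside Mndal is thus mostly that of the family. From 11 to 50 places before Mndal 6 of 40 were called, and from 51 to 100 places before it 5 of 50. Of the next 50 genes before these 1 was called, and of the 100 genes before those 0. On the far side, where 164 measured genes follow to the end of the chromosome, 1 of 50 was called from 51 to 100 places away and 0 from 11 to 50 or beyond 100. Neighbouring genes are often inherited together, so these calls are not independent of each other. Whether the probes bind RNA of both parents equally was not tested, so the calls are differences in array signal.

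**Figure D2:**
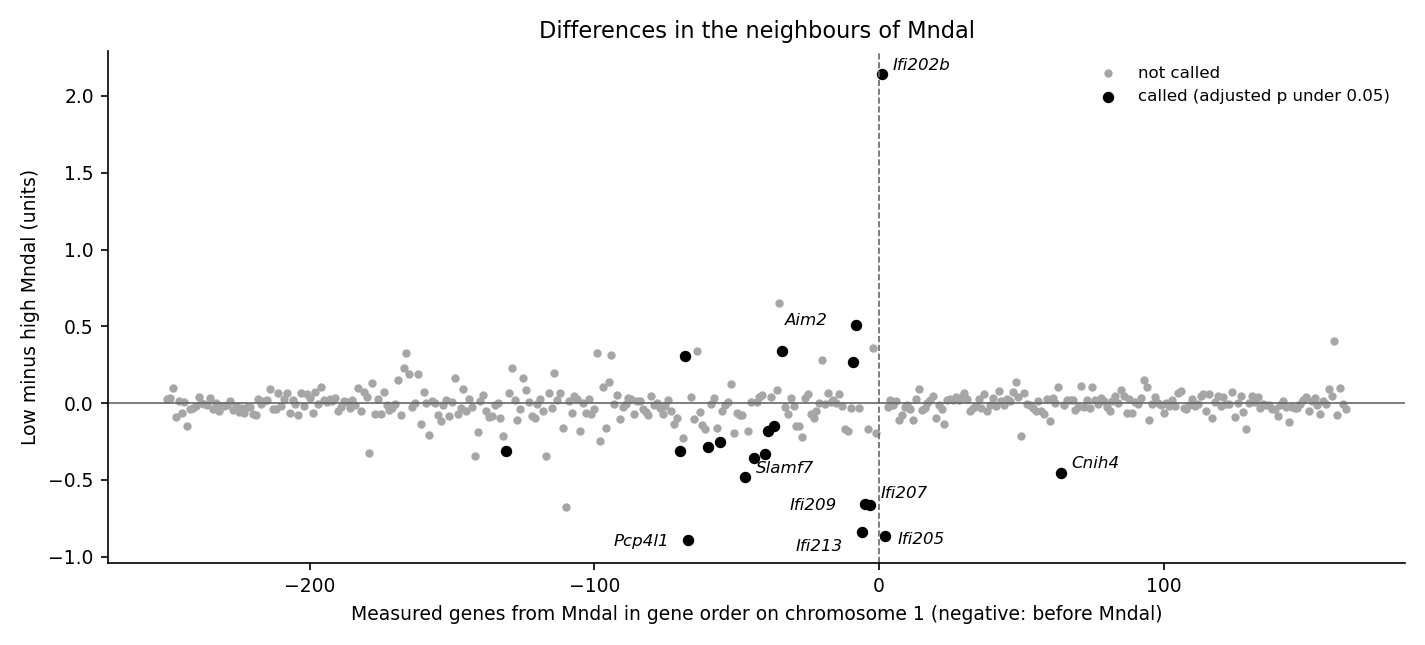
Difference between low and high Mndal strains in units (vertical axis, low minus high) for 414 measured neighbours, by the number of measured genes from Mndal in gene order (horizontal axis). Black points are the 20 called genes and grey points the others. Ifi202b stands alone at 2.14, Pcp4l1, Ifi205 and Ifi213 lie below -0.8, and calls reach further before Mndal than after it.

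Within the Ifi200 family, 6 of the 10 tested members were called, 2 higher and 4 lower in low Mndal strains, and 9 had an unadjusted p under 0.05. Ifi202b, the first measured gene after Mndal, had the largest difference of any gene tested. It ranged from 7.84 to 8.61 units in low Mndal strains (median 8.26) and from 5.74 to 6.65 in high Mndal strains (median 6.09). The groups did not overlap, which held for 2 of the 22179 genes (0.00902%). The difference was 2.14 units (95% interval 2.00 to 2.29, adjusted p = 7.69e-25, limma). Ifi202b was thus high where Mndal was low, in all 37 strains.

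Aim2, the inflammasome sensor of cytosolic DNA, was the other member higher in low Mndal strains. It ranged from 7.71 to 8.66 units in low strains (median 8.20) and from 7.33 to 8.06 in high strains (median 7.70), with some overlap. The difference was 0.506 units (95% interval 0.373 to 0.639, adjusted p = 1.09e-05, limma).

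Ifi213, Ifi207, Ifi209 and Ifi205 were lower in low Mndal strains. Ifi213, a pyrin and HIN domain gene, was the other gene without overlap, with 5.61 to 6.21 units in low strains (median 6.06) and 6.26 to 7.57 in high strains (median 6.76). Its difference was -0.842 units (95% interval -1.04 to -0.644, adjusted p = 1.46e-06, limma). Ifi207 ranged from 7.07 to 8.16 units in low strains (median 7.59) and from 7.63 to 8.68 in high strains (median 8.33), a difference of -0.661 (adjusted p = 2.02e-06, limma). Of 19 low strains 8 lay above the lowest high strain, and 3 of 18 high strains lay below the highest low strain.

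Ifi209 ranged from 5.99 to 6.801 units in low Mndal strains (median 6.39) and from 6.29 to 7.77 in high Mndal strains (median 7.01), a difference of -0.656 units (adjusted p = 0.000153, limma). Ifi205 ranged from 10.02 to 12.27 units in low strains (median 11.33) and from 11.9 to 12.6 in high strains (median 12.2), a difference of -0.862 (adjusted p = 0.00308, limma). The low strains were the more spread out for Ifi205, with an SD of 0.657 against 0.224 in high strains, and BXD48 and BXD96 were lowest at 10.02 and 10.06.

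The remaining 4 tested members were not called. Ifi204, a member known to act in the nucleus on transcription, ranged from 7.37 to 8.94 units in low Mndal strains and from 6.74 to 8.60 in high ones, and differed by 0.359 units (adjusted p = 0.548, limma). Ifi203-ps, a pseudogene, differed by -0.198 units (adjusted p = 0.414) and Ifi208 by -0.171 (adjusted p = 0.498). Ifi214 differed by -0.0323 units (adjusted p = 0.947), with medians of 5.25 in low and 5.18 in high strains. For Ifi204 the 95% interval ran from 0.0512 to 0.666 units, so a shift of the size seen for Aim2 lies within it.

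**Figure D3:**
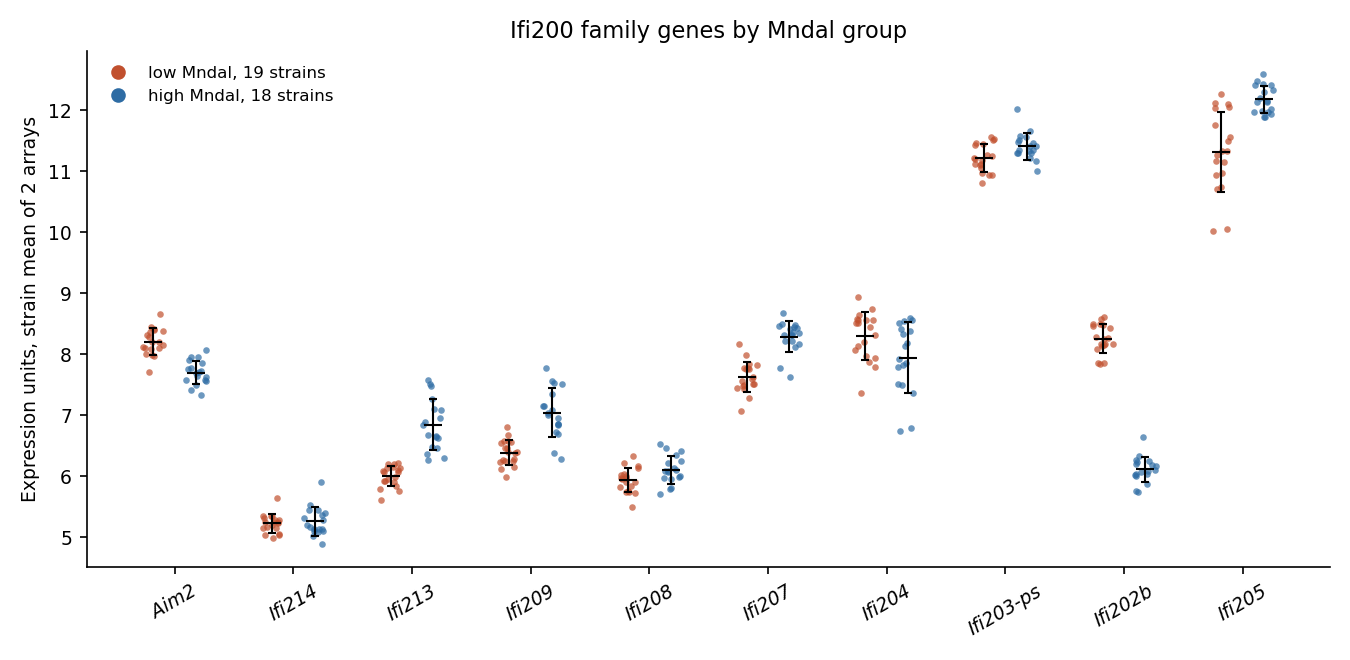
Strain means in expression units (vertical axis) of the 10 tested Ifi200 genes, in chromosomal order, with low Mndal strains left and high Mndal strains right of each pair. Bars show the group mean and SD over 19 and 18 strains. Ifi202b and Ifi213 show no overlap, in opposite directions.

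The 5 genes most like Mndal over the 37 strain means, by the size of Pearson's r, were Ifi202b, Ifi213, Ifi207, Ifi209 and Aim2. Since the strains fall into 2 clusters, only correlations within a group are given, as descriptions over strains that share arrays with Mndal. Ifi202b did not follow Mndal within either group (r = 0.0121 in 19 low strains and -0.0400 in 18 high strains). Among high Mndal strains Ifi213, Ifi207, Ifi209 and Aim2 went with Mndal (r = 0.531, 0.534, 0.514 and 0.500). Among low strains the same 4 genes had r of 0.295, 0.237, -0.0954 and -0.271. Aim2 therefore ran opposite to Mndal between the groups and with it among high strains. Mndal varied less among low strains (SD 0.215 units, against 0.363 in high strains), and its level above background there is unknown, which limits the correlations in that group.

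Outside the family 14 of 404 neighbours were called, 3 higher and 11 lower in low Mndal strains. Pcp4l1, a relative of the calmodulin-binding Pcp4, was the largest. It ranged from 11.1 to 12.7 units in low strains (median 11.4) and from 11.2 to 12.8 in high strains (median 12.5), a difference of -0.889 (95% interval -1.14 to -0.634, adjusted p = 6.81e-05, limma). The ranges coincide, but the exceptions were few and are named with the strains further on.

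Several receptors of leukocytes, platelets and endothelium are encoded on this stretch. Fcgr3, an activating receptor for IgG, ranged from 8.28 to 8.85 units in low strains (median 8.50) and from 8.41 to 9.03 in high strains (median 8.81), a difference of -0.315 (adjusted p = 0.00172, limma). It was the only call among 10 tested Fc receptor genes, of which 3 lie on other chromosomes. Among 9 SLAM family receptors, which leukocytes use to recognise each other, Slamf7 differed by -0.483 units (adjusted p = 0.0257) and Cd84 by -0.360 (adjusted p = 0.0362), and the other 7 were not called. Selp, the P-selectin of platelets and endothelium, differed by -0.310 units (adjusted p = 0.00956).

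Slamf7 was not called without BXD43 or without BXD45 (adjusted p up to 0.0536, limma), and Cd84 was not called in 19 of the 37 fits that left out 1 strain (adjusted p up to 0.0705, without BXD70). Macrophage markers had lower values in low Mndal strains too, without a call. Of 17 markers 0 were called, 6 had an unadjusted p under 0.05 and the median difference was -0.126 units, against -0.00113 over all genes. The mean of the list ranged from 9.52 to 9.93 units in low Mndal strains and from 9.69 to 10.2 in high ones. Folr2, a folate receptor of resident macrophages, differed by -0.267 units (adjusted p = 0.133), Lyz1 by -0.358 (adjusted p = 0.157), Lyz2 by -0.212 (adjusted p = 0.280) and C1qb by -0.238 (adjusted p = 0.285). In whole hearts fewer cells of a type and less RNA per cell cannot be told apart.

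With the macrophage marker mean as a covariate, a setting added after the data were seen, 10 of the 20 neighbours and 4 of the 7 distant genes kept their calls. Ifi202b, Ifi213, Ifi207, Ifi209, Aim2, Pcp4l1, Ncstn, Cnih4, Atp1a4 and Cadm3 were the neighbours that did. Of those that lost the call, Fcgr3 then differed by -0.259 units (adjusted p = 0.0581), Ifi205 by -0.678 (adjusted p = 0.115) and Slamf7 by -0.372 (adjusted p = 0.263, limma). Selp differed by -0.212 units (adjusted p = 0.256) and Cd84 by -0.193 (adjusted p = 0.372), the one neighbour whose difference shrank by over 1.5 times. Ppox, Copa, Pfdn2, Dcaf8 and Sdhc also lost their calls, at differences of -0.243, -0.167, -0.219, -0.150 and 0.255 units. All kept their direction.

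Genes of general cell functions made up most of the other neighbours. Ncstn, nicastrin of the gamma-secretase complex, ranged from 10.6 to 11.3 units in low Mndal strains (median 10.9) and from 10.8 to 11.4 in high ones (median 11.3), a difference of -0.328 (adjusted p = 0.000123, limma). Cnih4, a cornichon protein that helps cargo leave the endoplasmic reticulum, ranged from 9.27 to 10.2 units in low strains (median 9.52) and from 9.495 to 10.28 in high ones (median 10.1), a difference of -0.452 (adjusted p = 0.000534). It was the called gene furthest after Mndal, 64 places away. Ppox, an enzyme of haem synthesis, differed by -0.285 units (adjusted p = 0.00494), and Copa, a subunit of the COPI coat of transport vesicles, by -0.180 (adjusted p = 0.0107).

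Sdhc, a membrane subunit of succinate dehydrogenase in the respiratory chain, was higher in low Mndal strains. It ranged from 12.9 to 13.7 units in low strains (median 13.4) and from 12.9 to 13.7 in high strains (median 13.1), a difference of 0.306 (adjusted p = 0.0116, limma). Atp1a4, a sodium pump subunit known from sperm, differed by 0.339 units (adjusted p = 0.00695), and Cadm3, a cell adhesion protein, by 0.270 (adjusted p = 0.0257, and 0.0520 without BXD43). Pfdn2 of the prefoldin chaperone differed by -0.251 units (adjusted p = 0.00998) and Dcaf8, an adaptor of a ubiquitin ligase, by -0.147 (adjusted p = 0.0432). These last 2 genes fell outside the naming rule and are named to complete the count. Of 32 listed genes of heart and metabolism on distal chromosome 1, 1 was higher and 2 were lower, with 12 at an unadjusted p under 0.05. Tagln2, an actin-binding transgelin, had a difference of -0.219 units and was not called (adjusted p = 0.0655).

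The parents, which the split did not use, gave the same directions beside Mndal. For 20 of 20 called neighbours the DBA/2J minus C57BL/6J difference had the sign of the low minus high difference, and for 17 it did so on both diets. With 1 array per parent and diet this is a description. Ifi202b had 8.40 and 8.57 units on chow and high fat in DBA/2J, against 6.28 and 6.55 in C57BL/6J. Pcp4l1 had 11.03 and 11.18 units in DBA/2J, against 12.6 in C57BL/6J on both diets. Aim2 had 8.59 and 8.30 units in DBA/2J, against 7.52 and 7.57 in C57BL/6J.

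The parents differed least for 3 called neighbours. Ifi205 averaged 0.0295 units lower in DBA/2J, although it differed by -0.862 between the strain groups, and Cd84 averaged 0.0360 units lower. Atp1a4 averaged 0.0460 units higher in DBA/2J. Each of these gaps is smaller than the SD between strains within either group. That also held for Selp, with a DBA/2J minus C57BL/6J difference of -0.1325 units against SDs of 0.181 in low and 0.195 in high strains. For Dcaf8 the parents differed by -0.085 units, against SDs of 0.107 and 0.0738.

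Set against parent levels from 1 array per diet, most strains departed from their group at 1 gene or more. For 13 called neighbours with parents at least 0.3 units apart, each strain mean was set against the nearer parent. Mndal and Ifi202b were nearer DBA/2J in all 19 low strains and nearer C57BL/6J in all 18 high strains, whereas 8 strains matched for all 13 genes and 8 others departed at 1 gene only. Cadm3, Pfdn2 and Ifi209 accounted for many departures. Cadm3 was nearer C57BL/6J in 13 of 19 low strains, Pfdn2 was nearer DBA/2J in 11 of 18 high strains, and Ifi209 was nearer DBA/2J in 9 of 18 high strains. For Cadm3 the low group mean of 8.73 units itself lay nearer C57BL/6J (8.64) than DBA/2J (9.07). For Pfdn2 the high group mean of 9.69 units lay nearer DBA/2J (9.53) than C57BL/6J (9.95). A departure at either gene therefore need not set a strain apart from the rest of its group.

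In 4 strains the departure covered several genes before Mndal. The low Mndal strains BXD62, BXD68 and BXD84 had 12.7, 12.4 and 12.4 units of Pcp4l1, as in C57BL/6J, and were on the C57BL/6J side for Fcgr3, Sdhc, Slamf7 and Ncstn too. The high Mndal strain BXD71 had 11.2 units of Pcp4l1, as in DBA/2J, and was on the DBA/2J side for the same 5 genes. These 4 strains kept the Ifi202b level of their Mndal group.

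After Mndal, Cnih4 broke ranks in other strains. It was on the C57BL/6J side in the low strains BXD64, BXD68, BXD84 and BXD98 and on the DBA/2J side in the high strain BXD65. Within the family itself, beside Ifi209, Ifi213 was nearer DBA/2J in the high strains BXD65, BXD66, BXD87, BXD89 and BXD97. Ifi207 was nearer DBA/2J in the high strains BXD63 and BXD66 and nearer C57BL/6J in the low strain BXD83. Aim2 was nearer C57BL/6J in the low strains BXD48, BXD95 and BXD100 and nearer DBA/2J in the high strain BXD71. BXD66, BXD97, BXD87 and BXD65 are also the 4 high strains with the lowest Mndal.

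**Figure D4:**
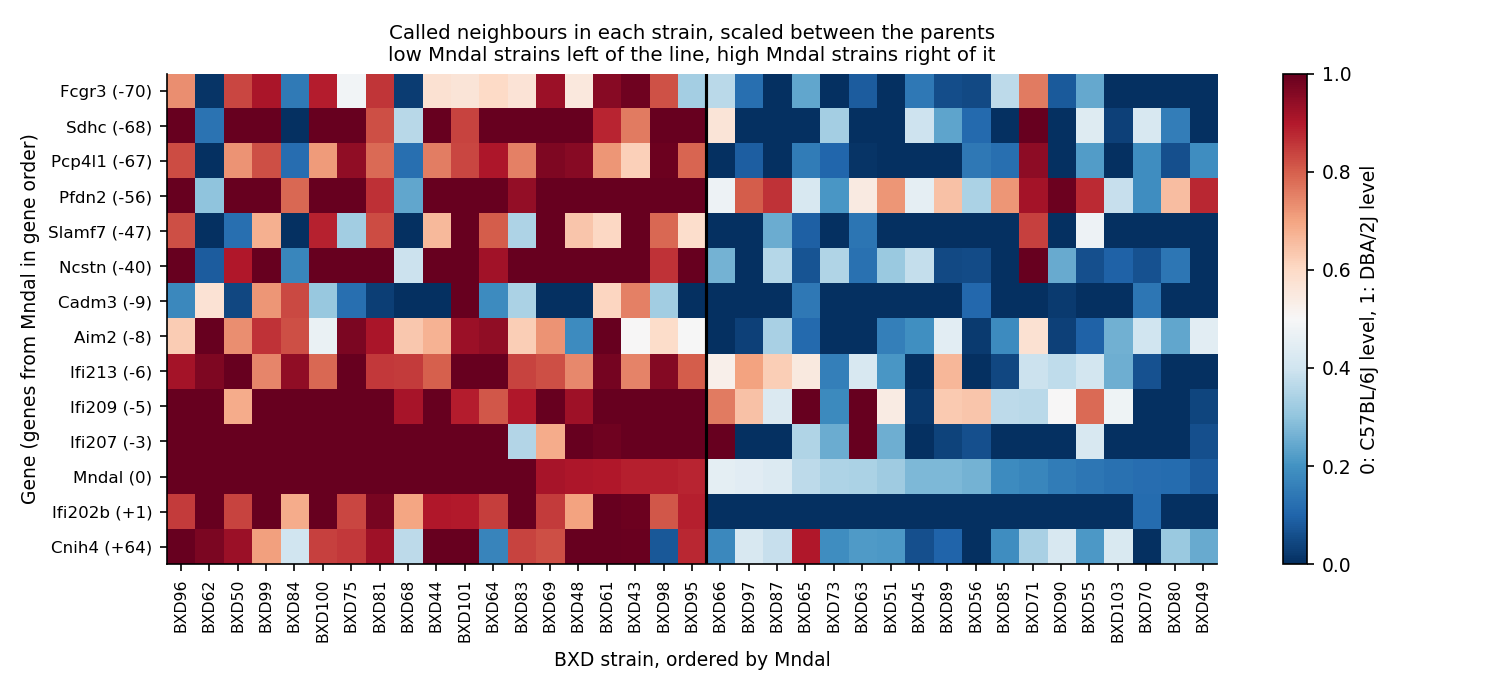
Strain means of Mndal and of 13 called neighbours (rows, in gene order, with places from Mndal in brackets) for each BXD strain (columns, ordered by Mndal, low strains left of the line), coloured by position between the parents, where 0 is the C57BL/6J and 1 the DBA/2J level, with values beyond the parents set to these ends. BXD62, BXD68 and BXD84 are blue and BXD71 is red for Fcgr3, Sdhc, Pcp4l1, Slamf7 and Ncstn, against their group.

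The 3 strains with chow alone were set beside the chow arrays of the 37 strains. BXD60, with low Mndal, had 8.69 units of Ifi202b, against 6.29 in BXD79 and 5.90 in BXD92a, which had high Mndal. Chow arrays of low Mndal strains spanned 7.56 to 8.71 units and those of high Mndal strains 5.36 to 6.63, so all 3 strains fell in the range of their side. Pcp4l1 was at 11 units in BXD60, against 12.3 in BXD79 and 12.2 in BXD92a. Ifi209 did not follow, with 7.09 units in BXD60, above the highest low Mndal chow array at 6.93, and 7.20 and 6.16 units in BXD79 and BXD92a. Cnih4 was at 10.1 units in BXD60, near the top of the low Mndal chow arrays (9.12 to 10.2), against 9.85 in BXD79 and 9.83 in BXD92a. Depp1, the distant gene with the lowest adjusted p, ran against the groups. It was at 10.7 units in BXD60, below the low Mndal chow range of 10.88 to 11.99, against 11.6 in both BXD79 and BXD92a, above the high Mndal chow range of 9.95 to 11.5.

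On other chromosomes 7 genes were called, 0.0337% of 20762, and each overlapped between the groups. Depp1 on chromosome 6, a FOXO target that acts on autophagy and is known to respond to fasting, ranged from 10.92 to 12.05 units in low Mndal strains (median 11.4) and from 10.3 to 11.8 in high ones (median 10.95). Its difference was 0.525 units (95% interval 0.342 to 0.708, adjusted p = 0.00198, limma). Klf15 on chromosome 6, a transcription factor of amino acid and lipid metabolism in fasting, ranged from 9.58 to 10.2 units in low strains and from 9.43 to 10.01 in high ones, a difference of 0.239 (adjusted p = 0.0237). Both were measured in fasted animals, and they stand 137 places apart in the order of measured genes.

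Cth on chromosome 3, the enzyme that makes cysteine from cystathionine, ranged from 7.33 to 8.27 units in low Mndal strains and from 7.31 to 7.77 in high ones, a difference of 0.311 (adjusted p = 0.0257, limma). It stands 9 places from Tnni3k in the order of measured genes, a cardiomyocyte kinase that differs between the parents. Tnni3k averaged 11.15 ± 0.825 units in low Mndal strains and 11.99 ± 0.615 in high ones (SD, n = 19 and 18), a difference of -0.835 that was not called (adjusted p = 0.172). With the Tnni3k level as a covariate, a setting added after the data were seen, Cth differed by 0.233 units and was no longer called (adjusted p = 0.250). Calls were also lost by Lvrn, Galnt15 and Mir361 on other chromosomes (adjusted p = 0.0504, 0.0978 and 0.204, limma) and by 4 of the 20 neighbours. The differences of Lvrn, Galnt15 and Mir361 were then 0.368, 0.202 and 0.249 units, against 0.371, 0.204 and 0.295 without the covariate. Why the calls were lost was not tested.

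Lvrn on chromosome 18, an aminopeptidase known from human placenta, ranged from 8.70 to 9.39 units in low Mndal strains and from 8.04 to 9.07 in high ones, a difference of 0.371 (adjusted p = 0.00757, limma). Galnt15 on chromosome 14, which starts O-linked sugar chains, differed by 0.204 units (adjusted p = 0.0257), and was not called without BXD45, BXD55, BXD65 or BXD70 (adjusted p up to 0.0563). Il13ra1 on chromosome X, a subunit of the interleukin 13 receptor, was the only distant gene lower in low Mndal strains, with 12.2 to 12.6 units against 12.3 to 12.8 in high strains and a difference of -0.199 (adjusted p = 0.00958). Mir361 on chromosome X, a microRNA outside the naming rule, differed by 0.295 units (adjusted p = 0.0298).

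**Figure D5:**
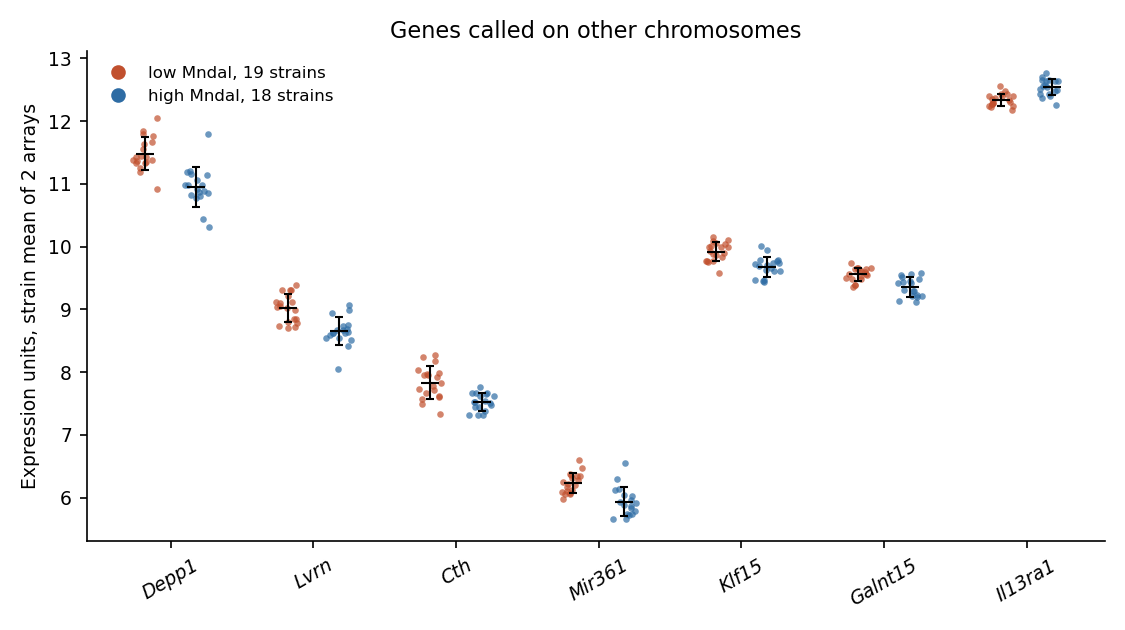
Strain means in expression units (vertical axis) of the 7 genes called on other chromosomes, with low Mndal strains left and high Mndal strains right of each pair. Bars show group mean and SD over 19 and 18 strains. Each pair overlaps, and Il13ra1 alone is lower in low Mndal strains.

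The parents had the sign of the strain groups for 4 of the 7 distant genes, and on both diets for 2. In Klf15, Il13ra1 and Mir361 they ran the other way, with DBA/2J minus C57BL/6J differences of -0.209, 0.364 and -0.580 units. With 1 array per strain fewer distant genes were called. Of the 7, chow arrays alone called Depp1 and Lvrn, and high fat arrays alone called 0 of these or of any other distant gene. The differences kept their sign on both diets. Depp1 differed by 0.538 units on chow and by 0.513 on high fat, and Lvrn by 0.395 and 0.347. Galnt15 was less even, with 0.111 units on chow and 0.296 on high fat.

 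Leaving out single strains gave 5 to 17 distant calls, with 5 without BXD43, 17 without BXD71, 14 without BXD48 and 11 without each of BXD49, BXD84 and BXD100. Cth was also not called without BXD43, BXD80 or BXD85 (adjusted p up to 0.0525, limma). Depp1, Klf15, Lvrn and Il13ra1 kept their calls in all 37 such fits, but only Il13ra1 did so under each other setting with both arrays of a strain. Depp1 (adjusted p = 0.0581) and Klf15 (adjusted p = 0.162) were not called with the macrophage marker mean as a covariate, where they differed by 0.442 and 0.223 units. Lvrn was not called with the Tnni3k level as a covariate (adjusted p = 0.0504) or with Mndal as a continuous term (adjusted p = 0.0509, limma). Klf15 was not called with quantile scaling (adjusted p = 0.0591) or with Mndal as a continuous term (adjusted p = 0.102).

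Liver markers had higher values in low Mndal strains, without a call. Of 7 liver markers 0 were called, 3 had an unadjusted p under 0.05, and the median difference was 0.349 units. For the 6 that are not on chromosome 1, 2 had an unadjusted p under 0.05 and the median was 0.311. The mean of all 7 ranged from 7.82 to 10.6 units in low Mndal strains (median 8.73) and from 7.97 to 9.11 in high ones (median 8.50). With that mean as a covariate, a setting added after the data were seen, 18 of the 20 neighbours and 5 of the 7 distant genes kept their calls, and Slamf7, Dcaf8, Cth and Galnt15 did not. Their differences were then -0.468, -0.139, 0.283 and 0.206 units, against -0.483, -0.147, 0.311 and 0.204 without the covariate.

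Both diets gave the same directions. All 27 called genes had the same sign in chow and in high fat arrays. Chow arrays alone called 13 genes (0.0586%), 11 of them among the 27, and high fat arrays alone 12 (0.0541%), all of them among the 27. Ifi202b, Ifi213, Ifi207, Aim2, Pcp4l1, Ncstn, Cnih4 and Ifi205 were called on each diet by itself. Ifi202b differed by 2.23 units on chow and by 2.06 on high fat.

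The second comparison asked whether the response to the high fat diet differs between low and high Mndal strains. It was tested on the high fat minus chow difference of each strain. No gene was called, 0 of 22179 (0%, limma), and 1105 genes (4.98%) had an unadjusted p under 0.05. For Ifi209 the low minus high difference in diet response was -0.458 units (adjusted p = 0.930), for Ifi202b -0.177 (adjusted p = 0.982) and for Aim2 -0.146 (adjusted p = 0.982). Simulated data of this size had noise independent between genes. There the test called 74 of 100 genes shifted by 0.4 units and 14 of 100 shifted by 0.2. Small differences in response would thus mostly be missed.

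Pathways known to act with the Ifi200 family were described by their counts. Of 38 interferon-stimulated genes 0 were called and 2 had an unadjusted p under 0.05, with a median difference of -0.0803 units. Ifi27 differed by -0.189 units and Oas3 by -0.0809 (both adjusted p = 0.606, limma). Among 19 genes of DNA sensing and the inflammasome, Aim2 was the only call, and Sting1, the adaptor of cytosolic DNA sensing, differed by -0.156 (adjusted p = 0.575).

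Antigen presentation gave no call. Of 10 genes of MHC class I 0 had an unadjusted p under 0.05. Of 7 genes of MHC class II, the molecules that present antigen to helper T cells, 3 did, with a median of -0.223 units, and H2-Ab1 differed by -0.302 (adjusted p = 0.615, limma). Of 12 T and NK cell markers 0 were called and 3 had an unadjusted p under 0.05, among them the NK receptor Klrb1c with -0.215 units (adjusted p = 0.172).

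Cell cycle genes were examined because Ifi200 proteins are known to bind p53 and to slow growth. Of 14 proliferation genes 0 were called and 5 had an unadjusted p under 0.05, with Mcm5 and Mcm2 of the replicative helicase at -0.154 and -0.156 units (adjusted p = 0.257 and 0.297, limma). Of 17 genes of the p53 response 0 were called and 0 had an unadjusted p under 0.05. Cdkn1a, the cell cycle inhibitor p21, differed by 0.258 units (adjusted p = 0.644).

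Markers of the heart's own cells showed no call. For 13 cardiomyocyte markers the median difference was -0.00731 units, for 12 endothelial markers -0.00256 and for 11 fibroblast markers -0.000730, with 0 at an unadjusted p under 0.05 in each list. The mean level of the cardiomyocyte list was 14.5 to 14.7 units in both groups. Of 10 atrial markers 0 were called and 1 had an unadjusted p under 0.05. Their median difference was 0.098 units, with a range from -0.115 to 1.05. The largest was that of Bmp10, a growth factor of the atria, at 1.05 units. It varied widely between pools (SD 1.40 in low and 1.59 in high strains, adjusted p = 0.572, limma).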

How the data were processed

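RNA pools were measured on 81 arrays, 1 per strain and diet. What the authors deposited is a score for every probe set. Per the submitters' processing notes Affymetrix Expression Console was used, with no version named. All 41345 values of an array average 8 with an SD of 2, a step that hides shifts shared by most transcripts. Background and summarisation steps and the genome build of the array were not given in the sources used here. Precision is limited by how many arrays there are.

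Probe sets with 1 gene symbol in the platform's gene table (23521 of 25335) were used, the one with the highest mean per gene, giving 22180 genes. Chromosomes and gene order came from a RefSeq table (GRCm38.p6, 21991 genes). Strain means of 37 BXD strains were compared in R 4.3.3 with limma 3.58.1 (statmod 1.5.0 for the strain block), without Mndal. The design had foreseen log2 values, and the test was kept for the log-like scores. Pairing of diets is by the strain labels. In simulated data 93 of 100 genes shifted by 0.4 units, 58 of 100 shifted by 0.2 and 6 of 21979 unchanged genes were called. The simulated noise was independent between genes, so these counts do not give the rate of false calls in the real data.

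The groups, gene lists and tests were chosen with earlier results of these data known. Named are the 12 largest called differences per direction among neighbours (within 250 measured genes), the 10 largest per direction elsewhere, the 5 called neighbours nearest to Mndal on each side, all measured Ifi200 genes, per described list up to 4 members of lowest adjusted p, up to 6 genes called for diet response and the 5 genes most like Mndal. Predicted genes, receptor families and small RNAs are counted only. Probe sets of Ifi211 and Ifi203 carry several gene symbols and were not used. Alternatives covered scaling, diets, dim genes, probe sets, the variance model, the neighbour window, covariates and single strains.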

Additional observations from a re-analysis of the deposited data

How the results depend on the processing

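The comparison gave 27 calls in all, 20 beside Mndal and 7 on other chromosomes. With all 74 arrays and strain as a random replicate block (correlation 0.144) these counts were 91, 31 and 55, and 20 of the 20 neighbours and 6 of the 7 distant genes kept their calls. This setting applied 1 correlation to all genes. Where the 2 arrays of a strain agree more closely than that, its p-values are too small. Why the counts rose was not tested. Chow arrays alone gave 13, 9 and 4, and high fat arrays alone 12, 12 and 0, from 1 array per strain in place of 2. Genes above the median level gave 12 beside Mndal, since fewer genes were tested, and the macrophage marker mean as a covariate gave 11. Leaving out 1 strain gave 21 to 39 calls in all, 16 to 22 beside Mndal and 5 to 17 on other chromosomes. Quantile scaling, median centring, the mean of probe sets, the trended variance, Mndal as a continuous term, the other covariates and the 100 nearest genes on either side moved each count by less than 1.5 times. The diet comparison gave 0 calls under each of its alternatives, also with no replicate block. No named gene that was called changed direction under any alternative run, whereas the uncalled Ifi214 did when BXD80 was left out. Leaving out strains within 0.3 units of the threshold was not run, since no strain lies there. Signals near background limit dim genes such as Ifi214, and their level above background is unknown.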

Other observations

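The mean of 38 interferon-stimulated genes was set against Mndal within each group. Since the groups were chosen by Mndal, the correlations are descriptions with no test, over strains whose Mndal and list values share arrays. Among 18 high Mndal strains Pearson's r was 0.597 and Spearman's rho 0.682. Without the 2 strains whose list mean lay farthest from the median r was 0.566. It was 0.286 on chow arrays and 0.618 on high fat arrays. Among 19 low Mndal strains r was 0.0327 and rho 0.121, and r was 0.223 without the 2 farthest strains. Whether the groups differ in this relation was not tested. Mndal varied less among low strains (SD 0.215 units, against 0.363 in high strains), and its level above background there is unknown, which limits r in that group. Within high Mndal strains the uncalled family members Ifi204 and Ifi214 also went with Mndal, with r of 0.605 and 0.612, as a description.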
